A study of Mus musculus with 4 samples.

Results

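Heat shock genes encode molecular chaperones, the proteins that keep other proteins folded. The 10 genes described here are Hspa1a, Hspa1b, Dnajb1, Hsph1, Bag3, Hspb1, Cryab, Hspa8, Hsp90aa1 and Hspe1, 10 of the 31053 genes of the count matrices. They were chosen by their symbols, and the set was selected on measured values, since Hspa1a spanned a wide range between libraries. All 10 had counts in every library, and all 10 passed the filter on low counts in each of the 10 cell types tested.

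The libraries came from bone of wild-type mice in 2 groups. Hindlimb unloading (HLU) mice had been suspended by the tail for 28 days, so that the hind limbs bore no load, and control (Ctrl) mice had not. Each group had 2 mice with 1 single-cell library each, made from tibiae and femurs that were flushed to take out marrow and then digested with enzymes. The study's methods name C57BL/6J as the strain, whereas the age is stated differently in the sources used here. Nothing else is given as differing between the groups, and the order in which the mice were processed is not stated. Although the marrow had been flushed out, neutrophils, their progenitors and other blood cells made up most of the kept cells of all libraries together. In Ctrl replicate 1 they did not: 27.6% of kept cells were osteogenic precursors, 15.2% mesenchymal stromal cells (MSC) and 16.8% unnamed. The skeletal cell types were few in HLU, with 52 and 108 osteogenic precursors and 46 and 88 MSC in HLU replicates 1 and 2. Ctrl replicates 1 and 2 had 2025 and 1618 osteogenic precursors and 1117 and 703 MSC. All 14 markers of the 2 skeletal types were detected in every library. The name osteogenic precursor follows its marker list, Acan, Col2a1, Col10a1, Matn3, Col9a1, Ibsp and Bglap, which holds mostly cartilage genes. Its clusters, numbered 1 and 14, were led by Col10a1 and Cytl1 and by Col9a1 and Col11a2. These cells are thus at least in part cartilage-like, and the name does not show a bone-forming lineage.

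Barcodes with 1000 to 40000 UMIs (unique molecular identifiers, each marking 1 captured transcript) and at most 10% mitochondrial UMIs were kept, 32217 in all and 7340 to 9485 in a library, with 45347595 to 87604282 UMIs in a library and a median of 3799 to 6294.5 UMIs in a cell. From 13 to 21 kept barcodes were shared by any 2 libraries. A level is the counts of a gene per 1000000 UMIs (counts per 1000000, CPM), summed over the cells of 1 type in 1 library, and every series of 4 values below gives the Ctrl libraries first and the HLU libraries second, each group with its replicate 1 before its replicate 2. Because a level is a sum over cells, a smaller share of cells with the transcript and fewer transcripts in each cell cannot be told apart from it alone. Libraries, not cells, were the replicates, so that every comparison of HLU with Ctrl is 2 libraries against 2.

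The heat shock response is the textbook case of induced transcription. Unfolded proteins draw chaperones away from the heat shock factor HSF1, which then binds heat shock elements, repeats of the motif GAA and its complement TTC facing each other in turn, and raises transcription of chaperone genes within minutes. The inducible HSP70 genes Hspa1a and Hspa1b are nearly silent in many resting cells, whereas Hspa8, Hsp90aa1 and Hspe1 serve folding in unstressed cells as well. Small heat shock proteins such as Hspb1 and Cryab are also part of the normal programme of muscle and of some mesenchymal cells.

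Hspa1a (chr17:34969190-34972156, minus strand) and Hspa1b (chr17:34956436-34959238, minus strand) are neighbouring copies of 1 exon each in mm10 (GENCODE M21). The others lie apart: Hspb1 at chr5:135887919-135889563, Hsph1 at chr5:149614287-149636376, Dnajb1 at chr8:83608193-83612653, Bag3 at chr7:128523616-128546981, Hspa8 at chr9:40800984-40810087, Cryab at chr9:50751325-50756636, Hsp90aa1 at chr12:110690605-110702728 and Hspe1 at chr1:55088132-55091307. Promoters (250 bases before to 50 after the start, RefSeq, GRCm38.p6) were found for 7 of the 10 genes, not for Hspa8, Hsp90aa1 and Cryab. Searched for the facing pairs GAANNTTC and TTCNNGAA, each its own complement, so that both strands are covered, 6 of the 7 genes held a pair, against 15.1% of the 32851 promoters of the table, and 2 held 3 alternating motifs in a row, against 0.603% of all promoters. Dnajb1 held no pair in this window. A match is a description of the letters, not a shown binding site.

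The 4 upstream stretches below are given 5′ to 3′ because they cover 2 of the genes with wide ranges between libraries (Hspa1a and Hspb1) and those with the longest arrays (Hspe1 and Hsph1). Capitals mark the facing pairs. They are Hspa1a chr17:34972157-34972406, Hspb1 chr5:135887782-135887849, Hspe1 chr1:55088039-55088096 and Hsph1 chr5:149636342-149636389, with Hspa1a and Hsph1 on the minus strand.
Hspa1a: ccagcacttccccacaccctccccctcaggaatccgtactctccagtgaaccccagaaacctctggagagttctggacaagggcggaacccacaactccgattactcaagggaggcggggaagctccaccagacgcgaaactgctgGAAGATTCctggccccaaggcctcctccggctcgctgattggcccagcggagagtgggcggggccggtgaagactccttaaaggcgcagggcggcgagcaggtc
Hspb1: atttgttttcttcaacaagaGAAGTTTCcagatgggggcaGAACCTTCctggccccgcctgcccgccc
Hspe1: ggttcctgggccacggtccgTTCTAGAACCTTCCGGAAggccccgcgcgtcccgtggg
Hsph1: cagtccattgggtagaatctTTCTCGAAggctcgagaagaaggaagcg
In Hspe1 3 facing pairs overlap into 1 run. The stretch of Hsph1 holds 1 pair, and its run of 3 motifs, like the pair of Bag3, lies just after the start. The Hspa1a and Hspb1 stretches hold 1 pair and 2 separate pairs. Counted from 1 at the first base of the 300-base window, the Hspa1a promoter differs from that of Hspa1b at 4 bases, C44T, T47C, T249G and C276T, and both hold the same pair. Of the windows of 90 bases in the Hspa1a transcript, 49.3% also occur in Hspa1b, so that reads from there cannot be assigned to 1 copy, but none of the windows in the last 600 bases, where 3′ libraries take most reads, is shared. The levels of the 2 copies are given apart, with this as a limit.

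Over all kept cells, the inducible HSP70 genes, like Hspb1, spanned wide ranges between libraries. Hspa1a was at 2497, 618, 253 and 5.72 CPM, and Hspa1b at 1349, 362, 209 and 2.25 CPM. Both Ctrl libraries lay above both HLU libraries, but the Ctrl libraries differed from each other by more than Ctrl replicate 2 differed from HLU replicate 1, and HLU replicate 2 stood far below the other libraries. A UMI of Hspa1a was found in 57.7, 34.9, 13.1 and 1.16% of the cells, and, after each cell had been thinned to 1000 UMIs so that depth was equal, in 28.5, 13.4, 6.18 and 0.337%.

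The members that serve unstressed cells as well, Hspa8, Hsp90aa1 and Hspe1, varied far less. Hspa8 was at 1663, 1255, 1443 and 985 CPM, Hsp90aa1 at 779.5, 459.9, 428 and 558 CPM and Hspe1 at 571, 266, 249 and 217 CPM. For Hspa8 and Hsp90aa1 the groups overlapped, HLU replicate 1 standing above Ctrl replicate 2 in Hspa8 and HLU replicate 2 above it in Hsp90aa1, and for Hspe1 they did not. The small heat shock genes went with the inducible ones: Hspb1 was at 2832, 821, 78.2 and 5.99 CPM and Cryab at 1572, 693, 23.3 and 12.8 CPM. The co-chaperones lay between, with Dnajb1 at 193, 97.0, 67.5 and 29.4 CPM, Hsph1 at 287, 98.9, 71.1 and 30.9 CPM and Bag3 at 122, 52.1, 12.1 and 10.8 CPM. Since the libraries differed in cell composition, these sums mix level and composition, and the levels within cell types follow.

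**Figure D1:**
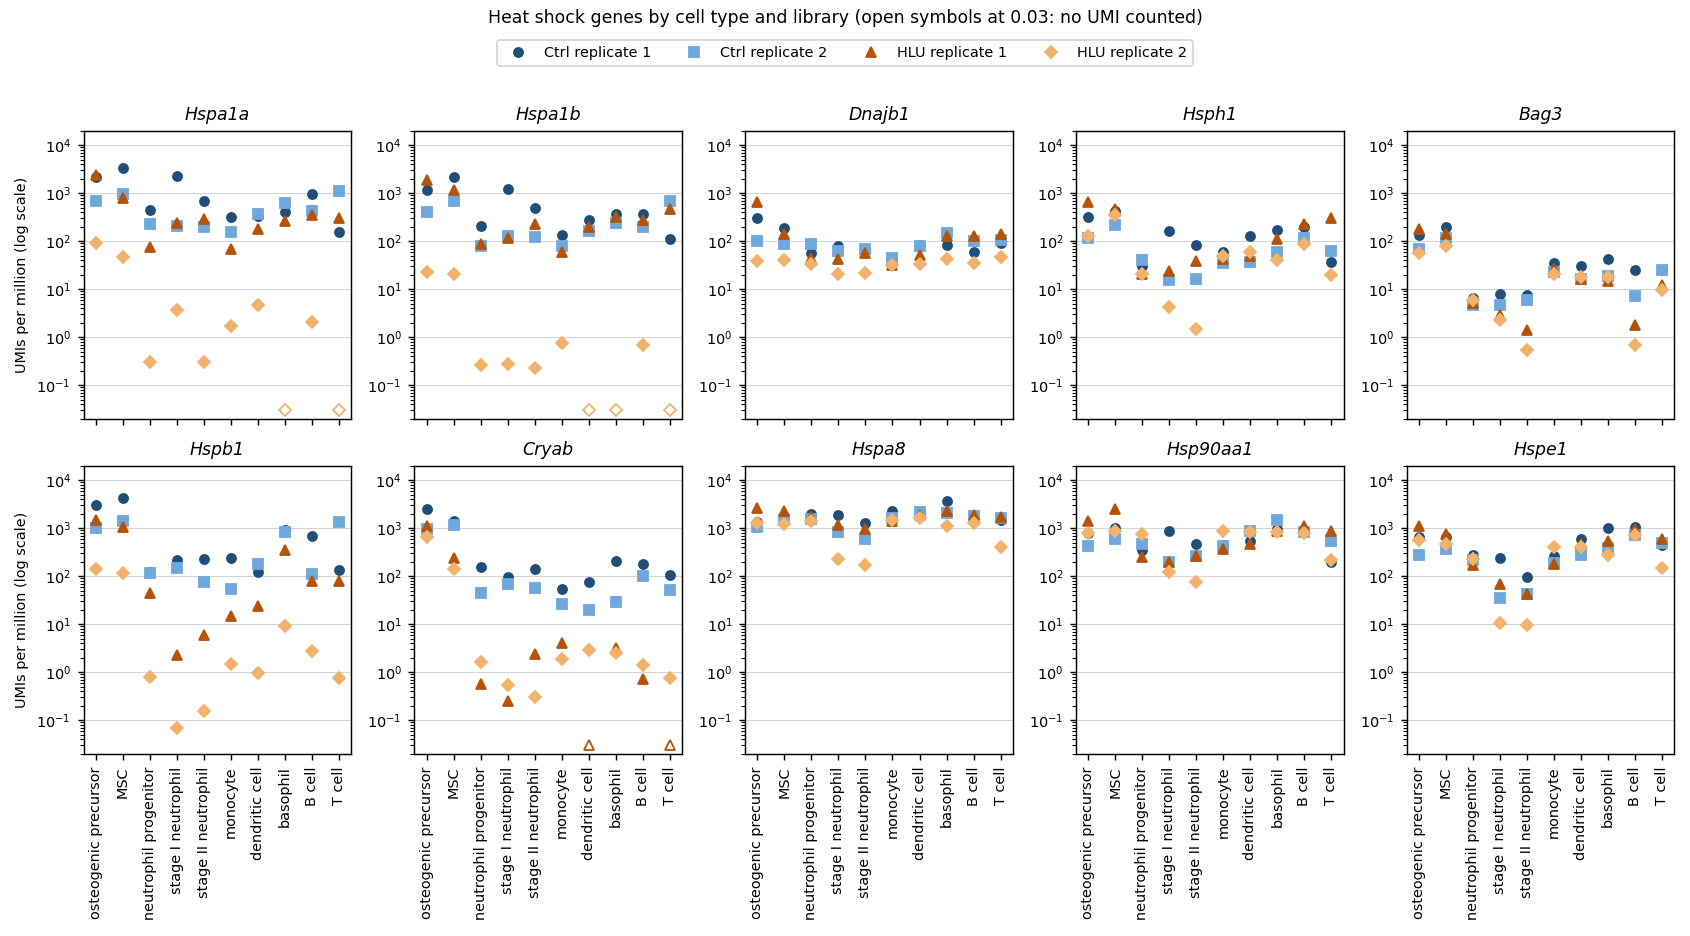
Level of each of the 10 heat shock genes (CPM, log scale) in the 10 cell types tested, with 1 symbol for each library and open symbols at 0.03 where no UMI was counted. HLU replicate 2 is the lowest library for Hspa1a, Hspa1b, Hspb1 and Dnajb1 in all 10 cell types, but for Hsp90aa1 and Hspe1 in only 4 each.

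Within cell types, the order of the libraries was counted over the 100 pairs of a gene and a cell type. HLU replicate 2 was the lowest library in 74 pairs, among them all 10 cell types for Hspa1a, Hspa1b, Hspb1 and Dnajb1, 8 for Hspa8, 7 for Bag3, 6 for Hsph1, 5 for Cryab and 4 each for Hsp90aa1 and Hspe1. Ctrl replicate 1 was the highest in 62 pairs, HLU replicate 1 in 21, Ctrl replicate 2 in 14 and HLU replicate 2 in 3. HLU replicate 1 fell within the range of the Ctrl libraries in 34 pairs, below both in 45 and above both in 21, whereas HLU replicate 2 lay below both in 81. These counts describe the values by which the genes were selected, so no test was made of them.

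Hspa1a encodes the stress-inducible HSP70 that binds unfolded stretches of client proteins. Its level in osteogenic precursors was 2151, 682, 2358 and 92.1 CPM, in MSC 3346, 982, 778 and 45.6 CPM and in stage I neutrophils, which carry granule genes such as Ltf and Camp, 2254, 202, 242 and 3.75 CPM. HLU replicate 1 thus stood above both Ctrl libraries in osteogenic precursors, between them in the neutrophils and below them in MSC. Only HLU replicate 2 was low in all of these types. The osteogenic precursors fall into clusters numbered 1 and 14, which the libraries filled unequally. Cluster 1 held 1701, 1234, 26 and 74 cells, and cluster 14 held 324, 384, 26 and 34 cells. The part of this composition in the levels was not tested. Stage II neutrophils, marked by Il1b and Cxcr2, were at 699, 194, 285 and 0.308 CPM, neutrophil progenitors at 446, 232, 77.1 and 0.297 CPM and monocytes at 316, 154, 68.4 and 1.71 CPM. B cells were at 947, 419, 357 and 2.11 CPM and T cells at 156, 1121, 307 and 0 CPM. In T cells and basophils of HLU replicate 2 no Hspa1a UMI was counted, where 3 counts would give 2.26 and 2.47 CPM. The level of Ctrl replicate 2 in T cells rested on few cells: 1 cell held 91.4% of the UMIs of Hspa1a there, and 1 cell held 56.7% in HLU replicate 1.

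Hspa1b, the neighbouring copy, followed Hspa1a. It was at 1150.4, 414, 1850.1 and 22.6 CPM in osteogenic precursors, 2141, 687, 1140.2 and 20.7 CPM in MSC and 495, 121, 232 and 0.231 CPM in stage II neutrophils. The ratio of Hspa1a to Hspa1b UMIs over all kept cells was 1.85, 1.71, 1.21 and 2.54. In HLU replicate 1 the balance was turned in some types, with a ratio of 0.68 in MSC, 0.67 in T cells and 0.86 in neutrophil progenitors, and 2.13 in stage I neutrophils. Both Ctrl libraries had ratios over 1 in all of the cell types tested.

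Dnajb1 encodes the HSP40 partner that delivers clients to HSP70 and stimulates its ATPase. It was at 303, 101, 662 and 39.0 CPM in osteogenic precursors and at 64.9, 67.6, 56.9 and 21.4 CPM in stage II neutrophils. In osteogenic precursors HLU replicate 1 was the highest and HLU replicate 2 the lowest library, so that the HLU libraries enclosed the Ctrl ones. Hsph1, an HSP110 protein that releases ADP from HSP70, was at 324, 114, 643 and 127 CPM in osteogenic precursors, 164, 15.4, 23.5 and 4.29 CPM in stage I and 84.6, 16.5, 38.4 and 1.46 CPM in stage II neutrophils. HLU replicate 1 was the highest library for Hsph1 in osteogenic precursors and lay between the Ctrl libraries in both neutrophil stages, where HLU replicate 2 was the lowest. Bag3, which releases nucleotide from HSP70 too and ties it to small heat shock proteins, was at 136, 68.1, 179.7 and 57.8 CPM in osteogenic precursors, 197, 118, 139 and 78.8 CPM in MSC and 7.72, 5.84, 1.43 and 0.54 CPM in stage II neutrophils.

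The small heat shock proteins hold unfolded proteins without ATP. Hspb1 was at 3095, 1017, 1471 and 142 CPM in osteogenic precursors, 4161, 1425, 1048 and 116 CPM in MSC, 214, 149, 2.30 and 0.0682 CPM in stage I and 228, 74.9, 5.85 and 0.154 CPM in stage II neutrophils. Cryab, the crystallin of lens and muscle, was at 2469.9, 975, 1113 and 650.1 CPM in osteogenic precursors, 1426, 1161, 239 and 143 CPM in MSC, 96.8, 70.2, 0.247 and 0.545 CPM in stage I and 138, 56.6, 2.43 and 0.308 CPM in stage II neutrophils. In the skeletal cells Cryab was detected at high level in all 4 libraries, including HLU replicate 2, whereas in the blood cells it was at 19.7 to 211 CPM in Ctrl and below 5 CPM in HLU.

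Hspa8, the HSP70 of unstressed cells, was at 1357, 1073, 2586 and 1304 CPM in osteogenic precursors, 1597, 1774, 1907 and 1292 CPM in B cells and 1274, 598, 963 and 174 CPM in stage II neutrophils. Hsp90aa1, the inducible HSP90, was at 995, 605, 2537 and 868 CPM in MSC, 934, 841, 1099 and 805 CPM in B cells and 479, 265, 269 and 76.6 CPM in stage II neutrophils. Hspe1, the lid of the mitochondrial chaperonin, was at 659, 282, 1121 and 562 CPM in osteogenic precursors, 1072, 715, 984 and 717 CPM in B cells and 97.6, 43.0, 43.1 and 9.79 CPM in stage II neutrophils. In B cells the libraries of these 3 genes differed by less than 2-fold and the groups overlapped, and in neutrophils HLU replicate 2 was low in all 3.

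The difference between HLU and Ctrl, from an edgeR fit for each cell type, is given as log2 fold change ± SE without a test, because the genes were selected on it. It was negative in 88 of the 100 pairs of a gene and a cell type, against 48.4% of the 92886 pairs of all genes tested. The median over the 10 genes was -2.24 in stage I neutrophils, -1.46 in stage II neutrophils, -1.02 in neutrophil progenitors, -0.95 in MSC and 0.17 in osteogenic precursors, and the medians over all genes tested lay between -0.04 and 0.06. For Hspa1a the value was -3.39 ± 1.63 in stage I neutrophils, -2.79 ± 1.26 in MSC and -0.51 ± 1.26 in osteogenic precursors, and its SE ran from 1.14 to 1.89 over the cell types. The MSC clusters were filled unequally by the groups, and in the largest of them in HLU, numbered 17 and taken alone after seeing the data, Hspa1a was at -1.14 ± 0.86, Dnajb1 at -0.0065 ± 0.28 against -1.02 ± 0.62 over all MSC, Hsph1 at 1.38 ± 0.35 against 0.04 ± 0.38, and Cryab at -2.89 ± 0.59 against -3.09 ± 0.35. Cryab had narrower errors, with -7.49 ± 0.53 in stage I neutrophils, -7.23 ± 0.58 in B cells and -1.24 ± 0.51 in osteogenic precursors. The first 2 of these values rest on few HLU counts. Cryab had 460, 460, 3 and 8 UMIs in stage I neutrophils and 127, 145, 2 and 2 in B cells. Hspb1 was at -7.29 ± 0.97 in stage I neutrophils, with 1016, 979, 28 and 1 UMIs there, and at -1.65 ± 1.04 in osteogenic precursors. For Hsp90aa1 the value was 0.62 ± 0.43 in osteogenic precursors and -1.63 ± 0.64 in stage I neutrophils.

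Whether both HLU libraries lay below both Ctrl libraries in CPM was counted as a second description. This held for 6 of the 10 genes in monocytes (15.8% of all genes tested there), 5 in neutrophil progenitors (11.1%), 5 in stage I neutrophils (21.5%), 5 in basophils (13.4%), 5 in dendritic cells (11.5%), 4 in stage II neutrophils (23.8%), 4 in B cells (9.26%), 3 in MSC (17.3%), 3 in T cells (14.3%) and 0 in osteogenic precursors (17.4%), 40 pairs in all, against 48 with the TMM-scaled CPM of edgeR, which was counted after seeing the data. Cryab was among them in each type but osteogenic precursors. In 1 pair, Hsp90aa1 in osteogenic precursors, both HLU libraries lay above both Ctrl libraries, at 775, 421, 1434 and 802 CPM. Nothing is read from these shares, since the contrast is the one that selected the genes.

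Whether the difference between HLU and Ctrl was unequal over the cell types was tested in 1 fit with edgeR, with the library as a block. Of the 10 genes, 2 were called at an adjusted p under 0.05, against 6.29% of the 12513 genes tested. They were Cryab (adjusted p = 3.4e-05) and Bag3 (adjusted p = 0.0054). The genes were selected on the same contrast, so these p-values are not free of that choice. In Cryab the fitted difference was smallest in osteogenic precursors and far larger in the blood cells. The blood cell values rest on few HLU counts, with 0 to 43 Cryab UMIs in a blood type of an HLU library and 11 to 723 in Ctrl. In Bag3 the fitted difference was -0.09 ± 0.56 in osteogenic precursors against -3.54 ± 0.88 in B cells and -2.72 ± 0.55 in stage II neutrophils. The last 2 values rest on few counts, with 18, 10, 5 and 1 Bag3 UMIs in B cells and 22, 28, 10 and 7 in stage II neutrophils. Hspb1 had an adjusted p of 0.055, Hspe1 of 0.41, Hspa1b of 0.55 and Hspa1a of 0.62, which does not show that their differences were equal. Hspb1 was called without Ctrl replicate 1 (adjusted p = 0.029). Without Ctrl replicate 1 or Ctrl replicate 2 the call of Bag3 was lost (adjusted p = 0.42 and 0.31), and without HLU replicate 1 Hspe1, Hspa8 and Hsph1 were called as well (adjusted p = 0.0062, 0.010 and 0.035), whereas Cryab was called without each library in turn.

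The next comparison asked in which cell types the genes were highest, with the differences between libraries taken out as a block. Clusters had been made without the 10 genes and without the chaperone lists. In osteogenic precursors 8 of the 10 genes were higher than in the mean of the other cell types, against 35.5% of all genes tested: as log2 difference ± SE, Cryab 6.87 ± 0.43, adjusted p = 6.6e-15; Hspb1 4.22 ± 0.46, adjusted p = 1.6e-09; Hspa1a 3.08 ± 0.48, adjusted p = 1.1e-06. Bag3 (3.04 ± 0.23, adjusted p = 3.1e-13), Hspa1b (2.50 ± 0.42, adjusted p = 4e-06), Hsph1 (1.92 ± 0.39, adjusted p = 6.8e-05), Dnajb1 (1.82 ± 0.26, adjusted p = 2.3e-07) and Hspe1 (1.27 ± 0.30, adjusted p = 0.00044) were the others, and Hspa8 and Hsp90aa1 were not called. These 8 calls held under every alternative that was run.

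MSC were higher for 8 of the 10 genes too, against 36% of all genes: Cryab by 4.45, Hspb1 by 3.77, Bag3 by 3.11, Hspa1b by 2.31, Hsph1 by 2.29, Hspa1a by 2.01, Hsp90aa1 by 0.87 and Hspe1 by 0.79 on the log2 scale. The MSC cells fall into 4 clusters that the groups filled unequally. In the cluster numbered 20 Hspa1a was at 17796, 8357, 6818 and 25.3 CPM, in 302, 100, 8 and 12 cells, and in the cluster numbered 17 at 389.6, 159, 250.2 and 31.2 CPM, in 278, 246, 36 and 42 cells. With cluster 17 alone, chosen as the MSC after seeing the data, the log2 difference from the other cell types was -0.36 ± 0.75 for Hspa1a, -0.68 ± 0.58 for Hspa1b and -0.05 ± 0.35 for Hsp90aa1, none called, whereas Cryab (2.62 ± 0.54, adjusted p = 0.00010), Hspb1 (1.58 ± 0.68, adjusted p = 0.044), Bag3 (2.66 ± 0.25, adjusted p = 6e-11) and Hsph1 (1.90 ± 0.46, adjusted p = 0.00060) were still higher. Hspe1 lost its call there (0.42 ± 0.32, adjusted p = 0.27), as did, in the same fit, Hspb1 in dendritic cells and in both neutrophil stages and Hspa1b in neutrophil progenitors. Hsp90aa1 also lost its call without HLU replicate 1 (adjusted p = 0.41) and Hspe1 without HLU replicate 1 or Ctrl replicate 2 (adjusted p = 0.12 and 0.082).

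**Figure D2:**
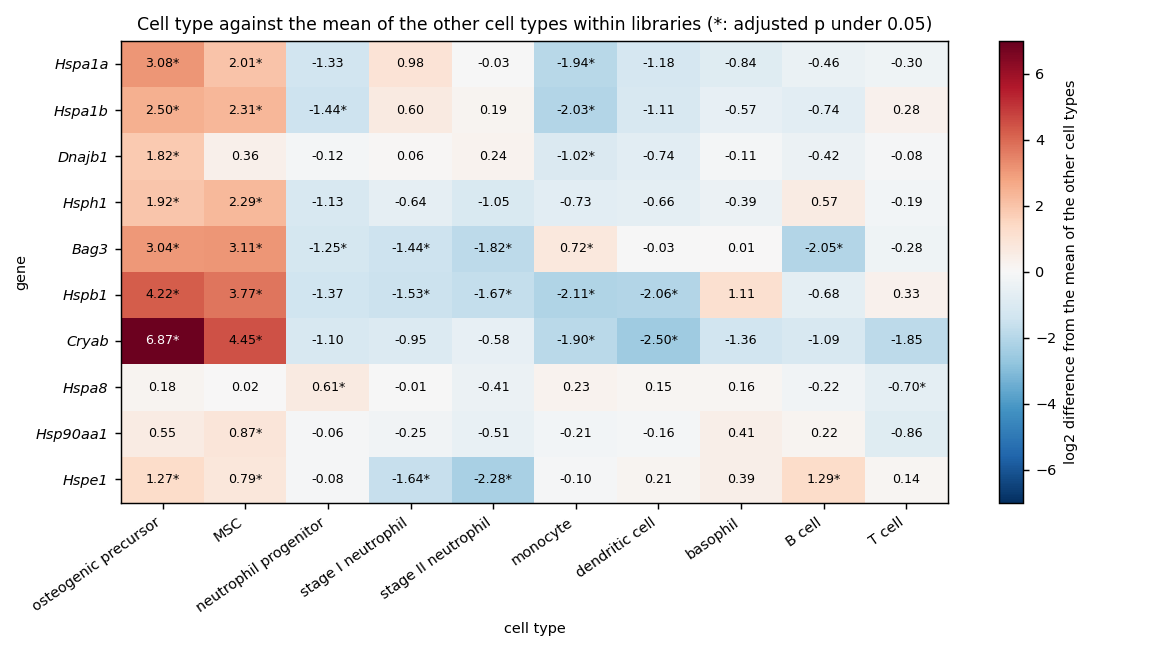
Difference of each cell type from the mean of the other 9 on the log2 scale, from 1 edgeR fit with the library as a block, for the 10 heat shock genes, where an asterisk marks an adjusted p under 0.05. The 2 skeletal types hold the highest values, up to 6.87 for Cryab in osteogenic precursors, and Hspa8 stays within 1 of 0 in all types.

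In monocytes 5 of the 10 genes were lower, against 15.5% of all genes, namely Hspb1 (-2.11 ± 0.68, adjusted p = 0.013), Hspa1b (-2.03 ± 0.55, adjusted p = 0.0032), Hspa1a (-1.94 ± 0.63, adjusted p = 0.013), Cryab (-1.90 ± 0.66, adjusted p = 0.02) and Dnajb1 (-1.02 ± 0.31, adjusted p = 0.009), and Bag3 was higher (0.72 ± 0.25, adjusted p = 0.021), against 26.5%. Without HLU replicate 1 the monocyte calls of Hspa1a, Hspb1 and Bag3 were lost (adjusted p = 0.093, 0.055 and 0.12), as were that of Cryab without Ctrl replicate 1 or 2 (0.12 and 0.10), that of Hspb1 without Ctrl replicate 2 (0.051) and that of Bag3 without HLU replicate 2 (0.069). Stage I neutrophils had 3 genes lower, against 30.6%, namely Hspe1 (-1.64 ± 0.39, adjusted p = 0.00047), Hspb1 (-1.53 ± 0.65, adjusted p = 0.042) and Bag3 (-1.44 ± 0.32, adjusted p = 0.0002). The same 3 were lower in stage II neutrophils, against 36.3%, with Hspe1 at -2.28 ± 0.41, adjusted p = 8.3e-06, Bag3 at -1.82 ± 0.35, adjusted p = 2.8e-05 and Hspb1 at -1.67 ± 0.67, adjusted p = 0.026. The neutrophil calls of Hspb1 were lost without HLU replicate 1 (adjusted p = 0.21 and 0.11) and without HLU replicate 2 (adjusted p = 0.13 and 0.073), and those of Hspe1 and Bag3 were kept. Hspa1a itself was not called in stage II neutrophils (-0.03 ± 0.52, adjusted p = 0.99) or in stage I (0.98 ± 0.50, adjusted p = 0.089).

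B cells had Hspe1 higher (1.29 ± 0.29, adjusted p = 0.00051), against 23.4% of all genes, and Bag3 lower (-2.05 ± 0.40, adjusted p = 9.2e-05), against 24.1%. Neutrophil progenitors had Hspa8 higher (0.61 ± 0.21, adjusted p = 0.016), against 30.6%, with Hspa1b (-1.44 ± 0.50, adjusted p = 0.016) and Bag3 (-1.25 ± 0.30, adjusted p = 0.00077) lower, against 22.4%. In dendritic cells Cryab (-2.50 ± 0.85, adjusted p = 0.023) and Hspb1 (-2.06 ± 0.76, adjusted p = 0.038) were lower, against 13%, and in T cells Hspa8 was (-0.70 ± 0.24, adjusted p = 0.021), against 19.6%. Of all 12513 genes, 2677 were higher and 2132 lower in basophils, where edgeR called 0 of the 10 members and 1 had an unadjusted p under 0.05. Leaving out single libraries ended some of these calls, among them Hspa8 in T cells without Ctrl replicate 1, HLU replicate 1 or HLU replicate 2 (adjusted p = 0.088, 0.053 and 0.065) and Hspb1 in dendritic cells without the same libraries (adjusted p = 0.14, 0.13 and 0.060). Cryab in dendritic cells lost its call without Ctrl replicate 1 or 2 (adjusted p = 0.074 and 0.10), Hspa1b in neutrophil progenitors without Ctrl replicate 2 or HLU replicate 1 (0.063 and 0.073) and Hspa8 there without Ctrl replicate 2 (0.065). With fewer clusters (resolution 0.5 in place of 1) the difference of Bag3 in B cells was -0.16 ± 0.40 and was not called.

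Cryab of blood cells differed between the groups together with the RNA of skeletal cells. Hspb1 followed it less closely, at 225, 153, 30.1 and 0.893 CPM over the 8 blood types, since the HLU libraries also differed widely from each other. The 14 skeletal markers summed to 4.70 to 133 CPM in the 8 blood types of the HLU libraries and to 599.7 to 3393.5 CPM in those of the Ctrl libraries, for example 795, 999, 9.06 and 4.70 CPM in stage I neutrophils and 1196, 2991, 12.9 and 10.5 CPM in B cells. Of these markers 0 to 3 were at 0 in a blood type of the Ctrl libraries and 1 to 10 in one of the HLU libraries. The genes were then set beside the markers. The ratio of a gene to the skeletal markers within the skeletal cells of a library was taken. It was multiplied by the marker UMIs in the blood cells of that library. For Cryab this product came to 60.6, 65.6, 107 and 54.4% of its UMIs in blood cells, for Hspb1 to 52.7, 25.3, 8.23 and 24.9% and for Bag3 to 38.3, 31.6, 4.35 and 1.37%. For Hspa1a it came to 8.79, 10.6, 1.71 and 8.69% and for Hspa8 to 2.69, 3.28, 0.334 and 0.216%. Cryab of blood cells was thus within 2-fold of the amount that skeletal RNA at this ratio would hold in every library, and Hspa1a and Hspa8 were above it. The part of such RNA in the differences between HLU and Ctrl was not tested.

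**Figure D3:**
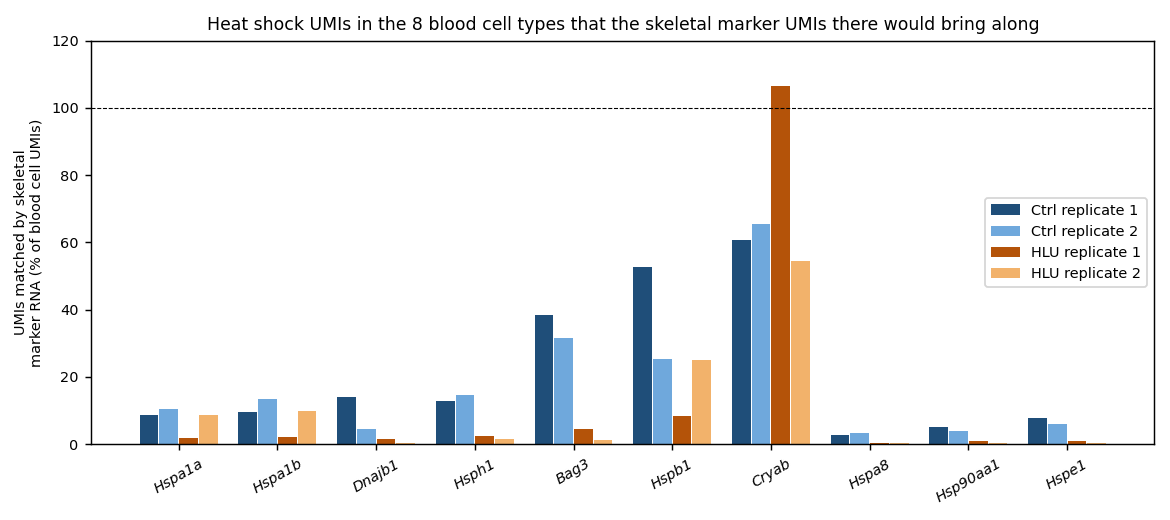
Share of each heat shock gene's UMIs in the 8 blood cell types (percent) that equals the gene's ratio to the 14 skeletal markers in skeletal cells times the marker UMIs in blood cells, with 1 bar for each library. Cryab lies between 54.4% and 107%, and Hspa8 is below 4% in every library.

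Hspa1a UMIs were concentrated in few cells. In stage II neutrophils the 5% of cells with the most Hspa1a UMIs held 74.5, 76.2, 94.8 and 100% of them, and in osteogenic precursors 68.1, 73.9, 53.0 and 83.1%. In stage I neutrophils of HLU replicate 2, 1 cell held 96.4% of the UMIs of Hspa1a. Hspa8 was spread more evenly, with 31.9, 27.0, 25.0 and 29.3% in the top 5% of stage II neutrophils.

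Cells with at least 10 Hspa1a UMIs were therefore described apart, as a range of a count and not as a cell type, with a threshold set after seeing the data. They were 18.0, 10.6, 32.7 and 4.63% of osteogenic precursors (364, 172, 17 and 5 cells), 34.3, 14.2, 15.2 and 1.14% of MSC, 10, 1.45, 2.03 and 0.0627% of stage I neutrophils and 2.08, 0.811, 1.29 and 0% of stage II neutrophils. For HLU replicate 1 the exact binomial 95% interval, which covers counting error only, was 20.3% to 47.1% in osteogenic precursors. That lay above the 16.3% to 19.7% of Ctrl replicate 1, in a type whose clusters the libraries filled unequally. In stage II neutrophils of HLU replicate 2 there were 0 such cells of 2851, which allows a share of up to 0.105%. Over the 8 blood types, 139, 76, 119 and 1 cells passed the threshold, and 23, 21, 40 and 0 of them had 10 to 19 UMIs, while 23, 27, 48 and 0 further cells had 5 to 9. Of those in blood types, 18.7, 22.4, 8.40 and 0% were putative doublets. Among all kept cells, 431 of 7340, 466 of 7635, 481 of 7757 and 720 of 9485 were.

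**Figure D4:**
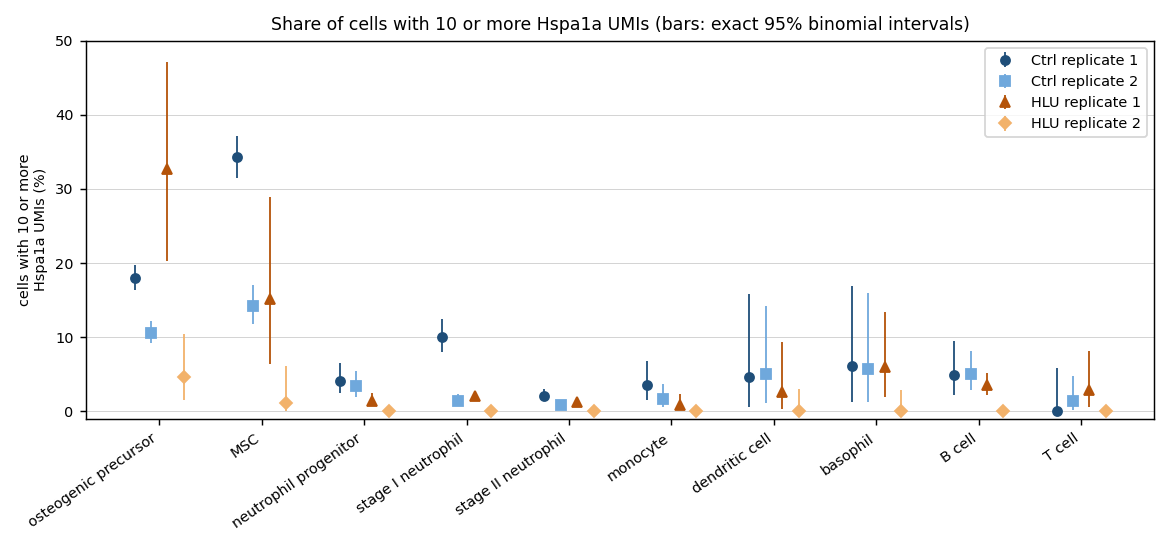
Share of cells with at least 10 Hspa1a UMIs (percent) in each cell type and library, with exact binomial 95% intervals that cover counting error only. HLU replicate 1 has such cells in all 10 types, at 32.7% of osteogenic precursors, and HLU replicate 2 has them in 3 of the 10 types.

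In these cells several of the other members were high as well, which the threshold did not use. In HLU replicate 1, the 34 such stage II neutrophils had Hsp90aa1 at 8585 CPM against 183 CPM in the other 2604, and Hsph1 at 2501 against 13.1 CPM. Hspa8 was at 4848 against 923 CPM, Hspe1 at 913 against 34.2 CPM and Dnajb1 at 211 against 55.4 CPM. Of Hspb1 and Cryab, 0 UMIs were counted in them, where 3 counts would give 42.2 CPM. The 37 stage I neutrophils of the same library gave the same picture, with Hsp90aa1 at 5791 against 122 CPM and 0 UMIs of Hspb1 and Cryab, where 3 counts would give 18.1 CPM.

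The Ctrl libraries held such neutrophils too. In Ctrl replicate 1 the 26 of stage II had Hsp90aa1 at 13368 against 241 CPM, and in Ctrl replicate 2 the 14 had it at 9877 against 191 CPM. Unlike those of HLU replicate 1, the Ctrl ones held Hspb1. It was at 1948 against 94.2 CPM in the 75 of stage I and at 502 against 223 CPM in the 26 of stage II in Ctrl replicate 1, and at 3486 against 116 CPM in the 15 of stage I in Ctrl replicate 2. Cryab in stage I was at 750.4 against 51.7 CPM in Ctrl replicate 1 and at 107 against 69.9 CPM in Ctrl replicate 2, and the skeletal markers summed to 1237 against 764 CPM and to 4357 against 964.9 CPM. The part of skeletal RNA in these values was not tested.

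In other blood types of HLU replicate 1 Hspb1 was high in such cells as well. The 22 B cells had it at 890.3 against 32.7 CPM, with skeletal markers at 12.7 against 12.9 CPM, and the 5 basophils at 2873 against 150.3 CPM, with 0 UMIs of Cryab in either. Of the 22 B cells 22.7% were putative doublets, against 9.03% of the other B cells of that library. Skeletal cells with at least 10 Hspa1a UMIs were high in Hspb1 too. In osteogenic precursors of HLU replicate 1, the 17 such cells had Hspb1 at 5221 against 264 CPM in the other 35, Cryab at 2625 against 626 CPM and Dnajb1 at 2531 against 60.3 CPM. In those of Ctrl replicate 1, Hspb1 was at 10911 against 1223 CPM. Since these cells come from single libraries, no test was made.

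**Figure D5:**
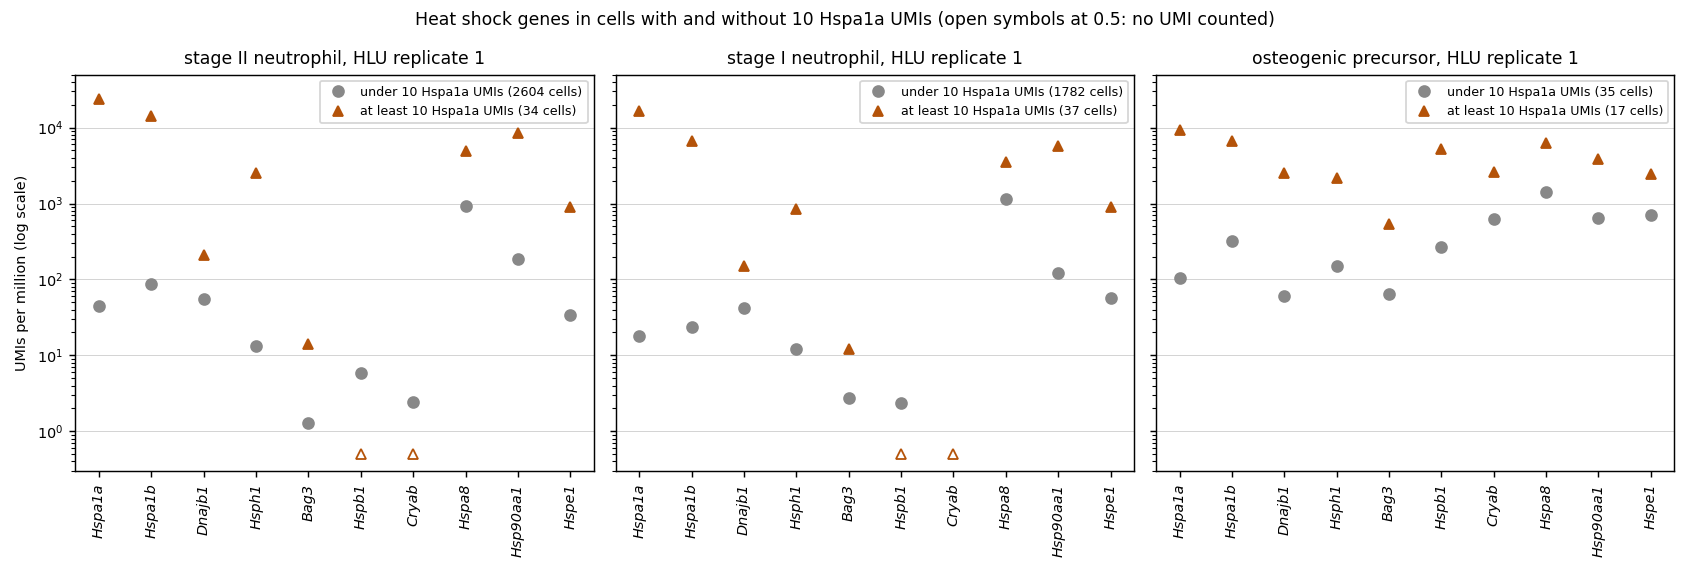
Level of the heat shock genes (CPM, log scale) in cells with at least 10 Hspa1a UMIs and in the other cells of the same type and library. In neutrophils of HLU replicate 1 Hsp90aa1, Hsph1 and Hspa8 are higher in the first than in the second, and Hspb1 and Cryab have no UMI in the first, while in osteogenic precursors both are higher.

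The cells below the threshold still differed between libraries. In stage II neutrophils Hspa1a was at 226, 75.3, 44.4 and 0.308 CPM in them and Hsph1 at 42.5, 13, 13.1 and 1.46 CPM. In osteogenic precursors Hspa1a was at 101, 92.5, 106 and 22.4 CPM in them. There the Ctrl libraries and HLU replicate 1 lay close together, and HLU replicate 2 was lower.

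The remaining chaperone genes were counted in 5 lists, chosen with earlier results of these data known. Between HLU and Ctrl, 8 pairs of a gene and a cell type were called in the 5 lists together, all lower in HLU. That is 1.07% of their 751 pairs, near the 0.954% of all pairs of a gene and a cell type that were called in either direction. Of the 31 other cytosolic chaperones and HSF1 targets tested, Hspb8, the partner of Bag3, was lower in stage I neutrophils (-7.99 ± 0.97, adjusted p = 0.013), stage II neutrophils (-6.46 ± 0.84, adjusted p = 0.021) and neutrophil progenitors (-6.30 ± 0.72, adjusted p = 0.029), and Dnaja4, an HSP40 protein, was lower in stage I neutrophils (-6.70 ± 1.14, adjusted p = 0.038). Of the 18 genes of the endoplasmic reticulum, Serpinh1, the collagen chaperone, was lower in stage I neutrophils (-4.94 ± 0.73, adjusted p = 0.017) and neutrophil progenitors (-4.52 ± 0.70, adjusted p = 0.049). Lower calls covered 2.75% of all genes in stage I neutrophils, 2.87% in stage II neutrophils, 1.47% in neutrophil progenitors and 0.765% in basophils. These 3 genes, like Cryab, were higher in both skeletal types than in the other types, as given below.

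Immediate early genes, transcription factors such as Fos and Jun that are known to rise while tissue is digested, were mostly lower in HLU as well. The fitted log2 fold change was negative in 120 of the 138 pairs of such a gene and a cell type, and 2 pairs were called: Atf3 in stage I neutrophils (-2.82 ± 0.49, adjusted p = 0.03) and Nr4a1 in basophils (-3.17 ± 0.53, adjusted p = 0.028). The 14 genes summed to 3994, 4685, 2564 and 1765 CPM over all kept cells, 4662, 6044, 3035 and 2847 CPM in osteogenic precursors and 5749.9, 6648, 4739 and 2361 CPM in stage II neutrophils. Ctrl replicate 2 was the highest library in each of these, where Ctrl replicate 1 was the highest for Hspa1a over all kept cells, and HLU replicate 2 was the lowest in both. Their part in the result was not tested. Negative values made up 163 of 286 pairs in the other cytosolic list, 138 of 178 in the endoplasmic reticulum list, 34 of 70 among subunits of the cytosolic chaperonin TRiC and 41 of 79 among mitochondrial chaperones. The last 2 lists had 0 calls in edgeR, with 0 and 6 pairs at an unadjusted p under 0.05.

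Median mitochondrial share, a sign of cell quality, was 1.46, 1.42, 0.796 and 0.582% of UMIs in the 4 libraries. The barcodes under 1000 UMIs, which were not kept, held Hspa1a at 3144, 1057, 500.3 and 66.5 CPM, the same order of libraries as in the kept cells. The part of either in the results was not tested.

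Between cell types, the lists went with the members in the skeletal cells. In osteogenic precursors 20 of 31 other cytosolic chaperones, 7 of 7 TRiC subunits, 8 of 8 mitochondrial chaperones, 16 of 18 endoplasmic reticulum genes and 7 of 14 immediate early genes were higher, against 35.5% of all genes. The median log2 differences were 0.55, 0.45, 0.89, 1.05 and 0.45, beside 2.21 for the members and 0.05 for all genes. Hspb8 (4.39 ± 0.37, adjusted p = 4.5e-12), Dnaja4 (3.99 ± 0.33, adjusted p = 4.1e-12) and Serpinh1 (6.74 ± 0.41, adjusted p = 3.5e-15) had large differences there. In MSC they were higher too, Hspb8 by 4.78, Dnaja4 by 3.25 and Serpinh1 by 5.44 on the log2 scale, each called. In MSC 20 of 31, 7 of 7, 6 of 8, 14 of 18 and 9 of 14 were higher, against 36% of all genes. Stage II neutrophils were lower in 7 of 7 TRiC subunits, 6 of 8 mitochondrial chaperones, among them Hspd1, the partner of Hspe1 (-2.65 ± 0.42, adjusted p = 1e-06), and 13 of 18 endoplasmic reticulum genes. They were lower in 12 and higher in 9 of the 31 other cytosolic chaperones. Their immediate early genes were higher in 12 of 14, led by Zfp36 (2.87 ± 0.15, adjusted p = 8.2e-18), a binder of AU-rich messenger RNA. Of all genes, 36.3% were lower and 4326 of 12513 higher in stage II neutrophils, so the other cytosolic list was near those shares. Stage I neutrophils were lower in 15 of 31, 7 of 7, 6 of 8 and 9 of 18, with 4 of 14 immediate early genes higher and 4 lower. Of all genes, 30.6% were lower and 4005 of 12513 higher there, and the immediate early list was near those shares.

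Over the 40 sums of a library and a cell type, log2(CPM + 1) of the members fell into 2 blocks, given as a description, since sums of 1 library share its depth and handling. Pearson's r with Hspa1a was 0.980 for Hspa1b, 0.866 for Hspb1, 0.727 for Dnajb1 and 0.660 for Cryab, but 0.373 for Hspe1 and 0.342 for Hsp90aa1. Hspe1 went with Hsph1 (0.832), Hsp90aa1 (0.829) and Hspa8 (0.807). With the mean of each library taken out, r between Hspa1a and Hspa8 fell from 0.567 to 0.257, and r between Hspa1a and Hsp90aa1 was 0.515. Of the 8046 genes with a mean of at least 10 CPM, those outside the lists with the highest r with Hspa1a were Kcmf1 (0.857), P4ha1 (0.852), Bnip3 (0.833), Yipf4 (0.831) and Chic2 (0.826). With Hspe1 they were Cops8 (0.907), Fcf1 (0.905), Cnbp (0.904), Mrpl50 (0.904) and Hmgn1 (0.904).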

How the data were processed

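Single-cell RNA-seq counts from bone of 2 Ctrl and 2 HLU mice were analysed. The authors deposited UMI counts per gene and barcode for each library, not normalized; per the labels they used Cell Ranger 6.0.0 with mm10, and Seurat 4.1.0 downstream. No column of per-sample values was left unused. The members and gene lists were chosen with earlier results of these data known.

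Barcodes were kept as in the study's methods, with 1000 to 40000 UMIs and at most 10% mitochondrial UMIs. Libraries were integrated with Seurat 5.3.0 under R 4.3.3 (50 principal components, 1969 variable genes, without the members and chaperone lists) and clustered at resolution 1 into 29 clusters, of which 4 stayed unnamed. Names came from fixed marker lists, requiring at least 3 raised markers; macrophages and erythroid cells were too few to test (at least 20 cells in every library were required). Putative doublets, 431 to 720 in a library (Scrublet in scanpy 1.11.5), were kept and left out in an alternative.

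Counts were summed per library and cell type. Differences came from edgeR 4.0.16 (quasi-likelihood test, TMM scaling, filter on low counts), with DESeq2 1.42.0 as an alternative, and adjusted p-values are Benjamini-Hochberg over all genes tested. HLU was compared with Ctrl in a fit for each cell type; cell types were compared in 1 fit with the library as a block. Levels are CPM from the counts, and an edgeR SE is the size of the log2 value divided by the square root of its F statistic. Nothing says that libraries differ by more than the mouse. In the fits for each cell type, p-values cover the spread between the libraries of a group. With the library as a block, the spread of level between libraries is taken out. Those p-values cover only how the differences between cell types vary over these libraries. The fits were tested on simulated counts. Other steps used Python 3.11.15. All 10 members are named; from each other list at most 3 called genes with the largest change in a comparison were eligible, and Hspd1 was named as the partner of Hspe1.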

Additional observations from a re-analysis of the deposited data

Results flagged for a closer look

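The difference between HLU and Ctrl was unequal over the cell types for Cryab (edgeR, adjusted p = 3.4e-05 in the test of all cell type terms together) and for Bag3 (adjusted p = 0.0054). Both p-values are limited by the selection of the genes on the contrast of HLU with Ctrl. The adjusted p without 1 library at a time ran from 8.08e-05 to 0.038 for Cryab and from 0.0042 to 0.42 for Bag3. In Cryab 9 of the 10 cell types had both HLU libraries below both Ctrl libraries in CPM, and in osteogenic precursors the groups overlapped. In Bag3 the libraries overlapped in osteogenic precursors, MSC, monocytes, dendritic cells and neutrophil progenitors. Over the 8 blood types together Cryab was at 119, 53.3, 1.34 and 1.28 CPM and Bag3 at 14.1, 8.96, 7.17 and 8.54 CPM. Skeletal marker RNA in blood cells was, like Cryab, lower in both HLU libraries than in both Ctrl libraries. Between the Ctrl libraries it did not follow Cryab everywhere. In B cells and stage I neutrophils Ctrl replicate 2 had the higher marker level and the lower Cryab level. The part of skeletal RNA in the result was not tested.

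An unnamed cluster, numbered 25, led by Rgs5, Tagln and Emcn and used in no comparison, had Hspa1a at 3196, 349, 7478 and 199 CPM in 71, 65, 17 and 23 cells. The value of HLU replicate 1 stood above both Ctrl libraries and rests on 17 cells. A larger unnamed cluster, numbered 10, was used in no comparison either and held 755, 350, 92 and 72 cells. Its leading genes were Ibsp, Hspa1a, Hspb1, Myoc and Cryab. At clustering resolution 2 a cluster with the same leading genes was named MSC, so MSC at the main resolution leave such cells out.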

How the results depend on the processing

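Over 10 alternatives beside the omission of single libraries, the number of member and cell type pairs lower in HLU, the number of calls of the members between cell types and the number of pairs with HLU replicate 2 as the lowest library stayed within 1.5 times of 88, 36 and 74. For the chaperone lists, 8 pairs were called between HLU and Ctrl, against 30 with DESeq2 and 20 with the replicate block; without 1 library at a time the count ran from 6 to 246, the highest without HLU replicate 1 and 75 without HLU replicate 2. A fit without 1 library leaves 1 sample in a group, which is then assumed to vary like the other group. The number of members with an unequal difference over cell types, 2, ran from 1 to 5. Without 1 library at a time, the members' calls between cell types ran from 28 to 35 and the pairs lower in HLU from 74 to 93. With MSC taken from cluster 17 alone, added after seeing the data, the log2 differences of Hspa1a, Hspa1b and Hsp90aa1 in MSC turned to -0.36, -0.68 and -0.046; cluster choice was the construction of that alternative. Over all genes, samples with the same replicate number did not deviate together (correlation of deviations -0.076 to 0.098 over the cell types). This does not show whether the members did. Over all kept cells, all members but Hsp90aa1 were higher in replicate 1 than in replicate 2 of both groups. Whether the replicate numbers pair the libraries is thus not known. With the replicate block 90 member pairs were lower in HLU. Of the 100 member and cell type values, the cause of no change was tested. With 2 libraries in a group, and down to 43 cells of a type in a library, sampling of cells limits the levels in the rarer types.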
